A study of Homo sapiens with 16 samples.

Results

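The tubulin genes followed here are 10 genes listed by symbol: the alpha tubulin genes TUBA1A, TUBA1B, TUBA1C and TUBA4A and the beta tubulin genes TUBB, TUBB2A, TUBB2B, TUBB3, TUBB4B and TUBB6. The list is one of names, with no threshold on a measured value, and all 10 passed the filter on low counts that left 16705 genes for testing of 35810 genes in all. Their RNA was read in pancreatic progenitors grown from the human embryonic stem cell line SA121, which carries an NGN3-GFP reporter of endocrine progenitors. On day 19 of differentiation the cells received 0.5 µM latrunculin B, a compound that binds actin monomers and depolymerises actin filaments, to follow what happens between the loss of filaments and endocrine specification. The libraries fell into 6 groups: control at 0 h (n = 3), taken before treatment by the series text although its label names DMSO, control at 24 h in DMSO (n = 2), and the drug for 3 h, 6 h or 24 h (n = 3 each) or for 12 h (n = 2). All came from 1 reporter line, and no control of 3, 6 or 12 h was used here, so at those times drug and time in culture cannot be told apart.

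Alpha and beta tubulin pair into the dimer from which microtubules are built, and cells hold several genes for each partner. Most of the difference between the proteins lies in the tail that projects from the microtubule surface, where motors and modifying enzymes act. Some genes are used widely, while others, TUBB3 above all, are known from neurons. Tubulin mRNA is also controlled by its own product: when free dimers are abundant, TTC5 recognises the first amino acids of a nascent tubulin chain on the ribosome and recruits SCAPER and the CCR4-NOT deadenylase, and the mRNA is degraded. Actin filaments and microtubules share linker proteins and are often remodelled together.

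The libraries held 23609727 to 33515398 estimated reads each, which gave the tubulin genes other than TUBA4A 252 to 32603 reads per library and TUBA4A 60 to 203. Replicates correlated across genes at r = 0.980 to 0.986 in every group but latrunculin B 12 h, whose 2 libraries reached 0.967. Replicate 2 of that pair held 1166 CPM (reads scaled to a common library total) summed over 10 mesenchyme markers, against 247 in replicate 1 and 188 to 458 in the other 14 libraries, so the changes tested at 12 h are also given without it. Replicate 1 of the latrunculin B 24 h group differed from its group mates, with 109 CPM summed over 8 endocrine markers against 300 and 272, 1586 over 6 liver markers against 1118 and 1233, and 2476 over 8 progenitor markers against 3372 and 3212. PDX1, a defining factor of pancreatic progenitors, stood at 222 to 395 CPM in every library. NEUROG3, which marks endocrine progenitors, averaged 0.800 CPM at 0 h and read 25.6 to 59.8 after 24 h of latrunculin B. That difference includes time in culture. The sum over the 8 endocrine markers was 30.2 to 37.3 CPM at 0 h and 61.7 and 73.0 in the 24 h control. Against the 24 h control, NEUROG3 was higher by 4.62 on the log2 scale without replicate 1 of the drug group (edgeR adjusted p = 2.95e-06). In bulk RNA, fewer cells of a type and less RNA per cell cannot be told apart. The labels do not say that replicates came from separate cultures, so p-values measure the spread between these libraries, which may be technical.

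The first bases of the coding sequence are shown because they encode the amino acids through which tubulin mRNA is recognised, and because they show how alike the genes are. Each line holds the first 30 bases on the coding strand, 5′ to 3′, from the GENCODE transcript on GRCh38. Capitals mark the start codon and the next 3 codons.
TUBA1A: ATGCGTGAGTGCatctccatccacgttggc
TUBA1B: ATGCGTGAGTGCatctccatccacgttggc
TUBA1C: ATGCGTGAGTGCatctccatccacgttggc
TUBA4A: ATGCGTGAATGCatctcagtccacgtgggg
TUBB: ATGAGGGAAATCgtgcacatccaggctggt
TUBB2A: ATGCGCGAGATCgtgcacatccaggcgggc
TUBB2B: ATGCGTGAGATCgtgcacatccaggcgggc
TUBB3: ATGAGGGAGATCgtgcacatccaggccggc
TUBB4B: ATGAGGGAAATCgtgcacttgcaggccggg
TUBB6: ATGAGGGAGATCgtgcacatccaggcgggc

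The 3 TUBA1 genes shared every one of these bases. TUBB3 and TUBB6 shared the capitals, as did TUBB with TUBB4B, while TUBB2A and TUBB2B differed from each other within them. These differences do not change the amino acids: the capitals encode M-R-E-I in every beta gene and M-R-E-C in every alpha gene. In every gene the start codon lies in the first coding exon of the transcript shown, which ends right after the start codon in the alpha genes and after 57 coding bases in the beta genes. The alpha start codons lie at chr12:49188977-49188979 (TUBA1A, minus strand), chr12:49131298-49131300 (TUBA1B, minus), chr12:49265182-49265184 (TUBA1C, plus) and chr2:219253856-219253858 (TUBA4A, minus). The beta start codons lie at chr6:30720507-30720509 (TUBB, plus), chr6:3157461-3157463 (TUBB2A, minus), chr6:3227541-3227543 (TUBB2B, minus), chr16:89923402-89923404 (TUBB3, plus), chr9:137241361-137241363 (TUBB4B, plus) and chr18:12308293-12308295 (TUBB6, plus).

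Over the whole coding sequence TUBB2A and TUBB2B were 98.13% identical, with a shared run of 725 bases. TUBA1A and TUBA1B were 97.2% identical and TUBA1B and TUBA1C 96.83%, whereas TUBB3 and TUBB6, with the same opening, were 87.51% identical. Salmon, which made the deposited tables, shares a read among transcripts it fits, so levels of single genes within the TUBA1 trio and the TUBB2 pair are uncertain. The TUBA1A and TUBA1C genes also overlap on opposite strands, at chr12:49188736-49189080, and whether counting used the strand is not given in the sources used here.

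Levels of different genes are compared on TPM, transcript abundance scaled to a common total, which corrects for length. Before treatment TUBB led with 646 ± 28.4 TPM (SD, n = 3), followed by TUBA1B at 580 ± 57.9 and TUBA1A at 453 ± 18.2. TUBB4B (220 ± 19.9) and TUBB3 (219 ± 8.06) came next, then TUBA1C (120 ± 11.5) and TUBB2B (118 ± 4.47), TUBB6 (43.3 ± 7.70), TUBB2A (33.7 ± 3.04) and last TUBA4A (4.23 ± 0.900). The replicate ranges of TUBB and TUBA1B overlapped, as did those of TUBB4B and TUBB3, of TUBA1C and TUBB2B, and of TUBB6 and TUBB2A, so the order within those pairs was not resolved. TUBB is counted here without a second identifier of the gene, described below. Its level and its place in the order are therefore those of the main identifier alone. At 6 h of latrunculin B the order was TUBB (732 ± 39.5), TUBA1A (679 ± 57.1), TUBA1B (588 ± 56.0) and TUBB3 (415 ± 36.0), with TUBB6 ninth at 17.6 ± 4.29. Only the first 3 of these overlapped with a neighbour at 6 h, TUBA1A with both of the others.

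**Figure D1:**
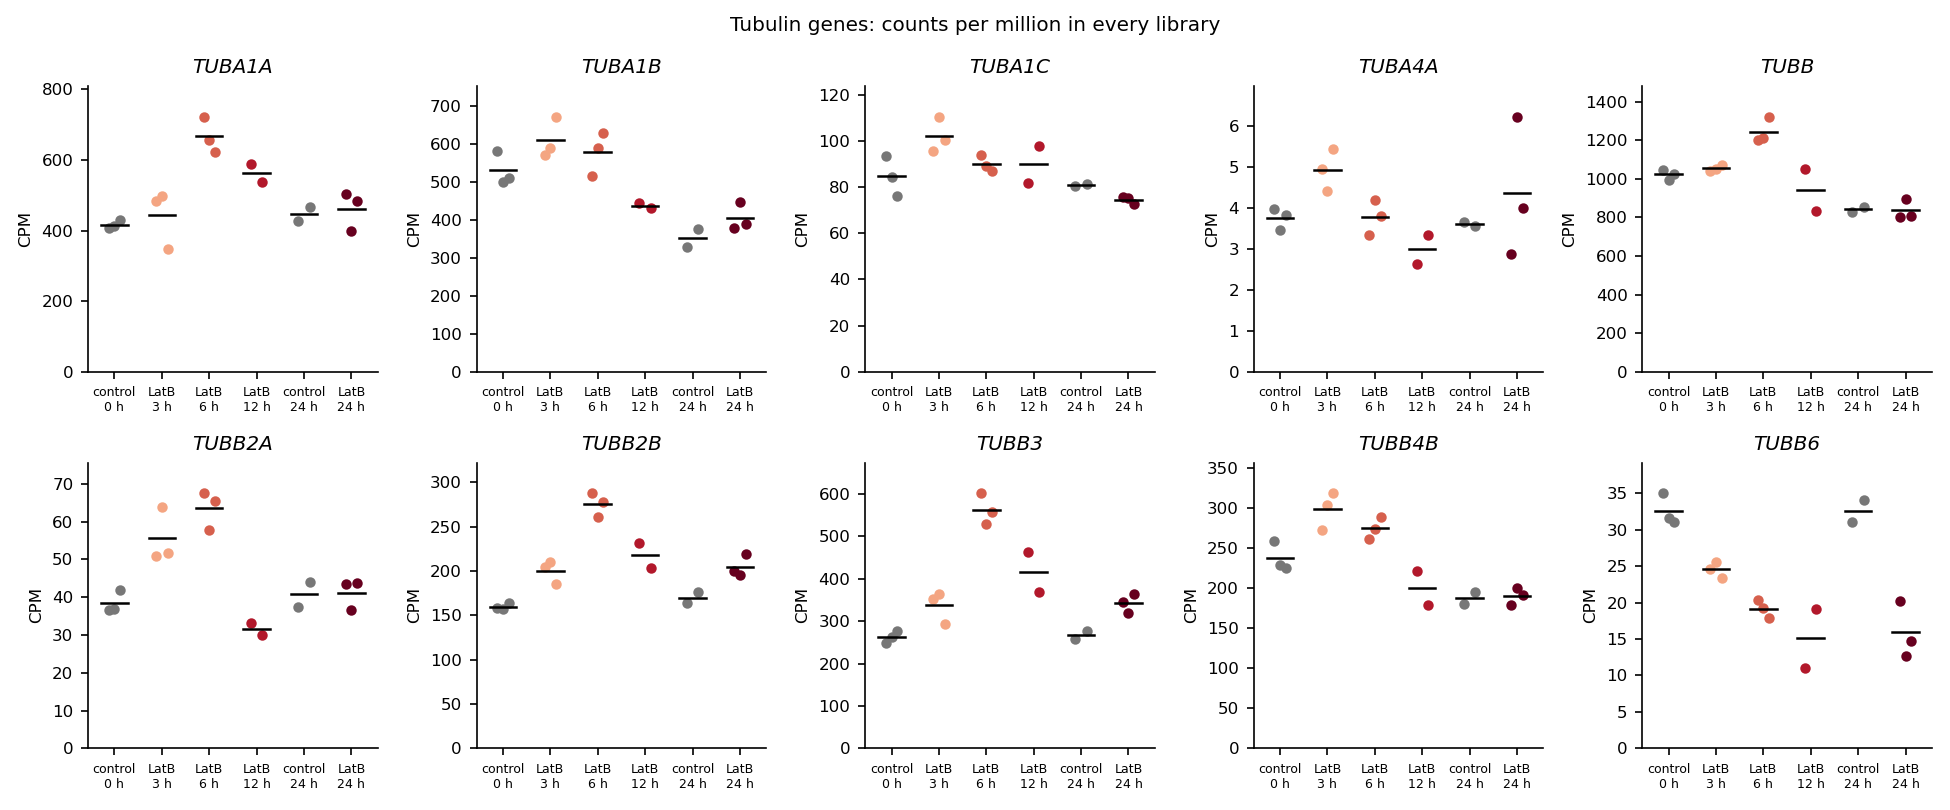
CPM of each tubulin gene in every library, with 1 panel per gene, the 6 groups along the horizontal axis, points for libraries (LatB, latrunculin B) and short lines for group means; each vertical axis starts at 0. TUBB3, TUBB2B and TUBA1A stand highest at 6 h, where TUBB3 lies between 528.5 and 602.4 CPM, and every TUBB6 library from 6 h of latrunculin B onward lies at or below 20.4 CPM against 31.0 to 35.0 in the 5 control libraries.

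TUBB3, the beta tubulin best known as a marker of neurons, showed the largest rise of the 10 genes. It stood at 249.7, 262.9 and 276.0 CPM at 0 h and at 257.9 and 276.1 CPM in the 24 h control. Under latrunculin B it read 353.5, 363.5 and 294.5 CPM at 3 h, then 602.4, 528.5 and 558.6 at 6 h, 464.1 and 370.1 at 12 h, and 345.6, 320.1 and 364.6 at 24 h. Every latrunculin B library lay above all 5 control libraries, and the 6 h libraries lay above all others. The rise over the 0 h control was 0.36 ± 0.094 (log2 fold change ± SE, edgeR adjusted p = 0.0102) at 3 h, 1.10 ± 0.095 (adjusted p = 1.55e-06) at 6 h, which is 2.14-fold, and 0.67 ± 0.10 (adjusted p = 0.000294) at 12 h. Against the 24 h control it was 0.36 ± 0.11 (adjusted p = 0.0148) at 24 h. From 3 h to 6 h TUBB3 rose by 0.74 ± 0.094 (adjusted p = 0.000148), and from 6 h to 24 h it fell by 0.71 on the log2 scale (SE 0.094, adjusted p = 6.95e-05). At 12 h the rise was 0.82 without replicate 2 and 0.49 without replicate 1, called both ways. The call at 3 h was lost without latrunculin B replicate 1 (0.30, edgeR adjusted p = 0.0518) or 2 (0.28, adjusted p = 0.0625) and with an offset for transcript length (0.26, adjusted p = 0.0833), on the TPM scale (0.17, limma adjusted p = 0.204) and in the deposited normalized counts (0.24, limma adjusted p = 0.108). The call at 24 h was lost without control 24 h replicate 1 (0.31, adjusted p = 0.125) or latrunculin B replicate 3 (0.32, adjusted p = 0.0519).

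TUBB2B, a beta tubulin of migrating neurons, followed the same course at a lower level. It read 157.8, 157.6 and 163.7 CPM at 0 h, 163.9 and 176.1 in the 24 h control, 204.2, 210.3 and 185.1 at 3 h, 287.7, 260.6 and 278.1 at 6 h, 231.9 and 203.6 at 12 h, and 199.8, 195.9 and 218.5 at 24 h. No latrunculin B library overlapped with a control library. The rises were 0.32 ± 0.065 (edgeR adjusted p = 0.00197) at 3 h, 0.79 ± 0.066 (adjusted p = 1.10e-06) at 6 h, 0.45 ± 0.073 (adjusted p = 0.000395) at 12 h and 0.27 ± 0.073 (adjusted p = 0.0105) at 24 h. The rise at 12 h was 0.54 without replicate 2 and remained called, and that at 24 h lost its call without control 24 h replicate 1 (0.22, adjusted p = 0.118).

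TUBA1A, the main alpha tubulin of the developing brain, changed later. Its libraries stood at 408.1, 411.5 and 428.5 CPM at 0 h, 426.7 and 466.7 in the 24 h control, and 483.1, 497.9 and 348.4 at 3 h. They then read 722.4, 657.6 and 623.6 CPM at 6 h, 587.9 and 538.6 at 12 h, and 503.3, 397.5 and 483.5 at 24 h. The 3 h and 24 h groups overlapped with their controls, whereas the 6 h and 12 h groups lay above every control library. TUBA1A rose by 0.68 ± 0.12 (edgeR adjusted p = 0.000468) at 6 h and by 0.44 ± 0.13 (adjusted p = 0.0201) at 12 h, and it fell by 0.53 on the log2 scale from 6 h to 24 h (SE 0.12, adjusted p = 0.00329). At 3 h the value was 0.09 ± 0.12 (adjusted p = 0.613) and at 24 h 0.05 ± 0.13 (adjusted p = 0.807). The 12 h rise was 0.50 without replicate 2 (adjusted p = 0.0354), and its call was lost without replicate 1 (0.37, adjusted p = 0.0991), without control 0 h replicate 2 (0.41, adjusted p = 0.0606) or against the 24 h control (0.33, adjusted p = 0.0943).

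Most markers of neurons did not pass the test at 3, 6 and 12 h. Of 12 neuron markers, 9 were tested, of which 1 rose at 3 h, 3 at 6 h, 1 at 12 h and 2 at 24 h, and 3 fell at 24 h, or 11.1%, 33.3%, 11.1% and 55.6% called beside 31.6%, 43.3%, 35.8% and 40.8% of all genes. Their median change was 0.16 at 3 h, 0.07 at 6 h, 0.31 at 12 h and 0.70 at 24 h. Without 12 h replicate 2, 10 were tested, and the median at 12 h was 0.07. The summed level of the listed markers was 206 to 226 CPM at 0 h, 173 to 185 in the 24 h control, 244 to 291 at 3 h, 309 to 366 at 6 h, 298 to 320 at 12 h and 238 to 293 at 24 h. In this sum every latrunculin B library lay above every control library. SNAP25, a synaptic membrane fusion protein, rose by 1.14 ± 0.15 at 6 h (edgeR adjusted p = 4.72e-05) and fell by 0.97 on the log2 scale at 24 h (adjusted p = 0.000571), and the light neurofilament NEFL rose by 1.22 at 6 h (adjusted p = 0.00200). The neuronal microtubule stabiliser DCX, also on the list, rose by 1.06 at 6 h, 1.98 at 12 h and 0.91 at 24 h (edgeR adjusted p = 0.000124, 2.48e-06 and 0.00118). Its 12 h value was 1.67 without replicate 2. The neural transcription factor SOX1 had no read in any library at 0 h, 3 h or 6 h. The neuronal RNA-binding protein ELAVL3 stayed at or under 0.151 CPM in every library. SOX1 and ELAVL3 were named after their values were seen. Within the 3 h group, replicate 3 held the lowest TUBB3 and TUBA1A values and the highest mesenchyme sum, 458 CPM against 291 and 296. That library also held the highest neuron sum, 291 CPM against 271 and 244, and the highest endocrine sum, 63.7 against 40.8 and 55.7. At 6 h replicate 1 had the highest TUBB3 value and the lowest neuron sum, 309 CPM against 320 and 366. At 12 h and 24 h the library with the highest TUBB3 value also had the highest neuron sum. It was 320 CPM against 298 at 12 h and 293 against 238 and 260 at 24 h. The part of other cells in the rise of TUBB3, TUBB2B and TUBA1A was not tested.

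TUBB2A, the near-copy of TUBB2B, rose early and no longer stood above the controls at 12 h. It read 36.55, 36.89 and 41.87 CPM at 0 h, 37.45 and 44.03 in the 24 h control, 50.99, 63.95 and 51.76 at 3 h, and 67.53, 57.7 and 65.33 at 6 h. At 12 h it read 33.2 and 29.87 CPM, below all 5 control libraries, and at 24 h 43.36, 36.65 and 43.66, which overlapped with the control. The rise was 0.53 ± 0.11 (edgeR adjusted p = 0.00171) at 3 h and 0.73 ± 0.11 (adjusted p = 0.000110) at 6 h. The value at 12 h was -0.29 ± 0.12 (adjusted p = 0.0812), and -0.21 without replicate 2 (adjusted p = 0.341). It was called against the 24 h control (-0.37, adjusted p = 0.0422) and on protein-coding transcripts alone (-0.33, adjusted p = 0.0434). At 24 h the value was 0.02 ± 0.12 (adjusted p = 0.928). Taken over the pair, TUBB2A and TUBB2B summed to 1 feature rose by 0.37, 0.77, 0.33 and 0.22 at 3, 6, 12 and 24 h, called each time (largest edgeR adjusted p 0.0362). At 12 h the sum changed by 0.42 without replicate 2 (adjusted p = 0.00306) and by 0.24, with its call lost, without replicate 1 (adjusted p = 0.0553).

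TUBB6, a beta tubulin made widely at low levels, was the only one of the 10 genes called lower than its control under latrunculin B in this fit. It read 35.03, 31.57 and 31.01 CPM at 0 h and 31.05 and 34.04 in the 24 h control. Under latrunculin B it read 24.65, 25.59 and 23.41 CPM at 3 h, 20.36, 19.22 and 17.83 at 6 h, 11.02 and 19.18 at 12 h, and 20.23, 12.71 and 14.80 at 24 h. No latrunculin B library reached the lowest control library. The fall on the log2 scale was -0.76 ± 0.17 (edgeR adjusted p = 0.00311) at 6 h, -1.10 ± 0.20 (adjusted p = 0.000981) at 12 h and -1.03 ± 0.19 (adjusted p = 0.000846) at 24 h, while -0.41 ± 0.17 at 3 h did not pass (adjusted p = 0.0910). The 3 h value ran from -0.35 to -0.76 over the alternatives, and 1 of them, the fit of only the compared groups, called it (-0.41, adjusted p = 0.00247). The controls differed by 0.00 ± 0.19 (adjusted p = 1). At 12 h, replicate 2, the library rich in mesenchyme markers, held the higher TUBB6 value, and the change was -1.56 without it and -0.76 without replicate 1. At 24 h the highest TUBB6 value was that of replicate 1, the library with the low endocrine sum, and the change was -1.24 without it, still called. Of 10 mesenchyme markers 1 rose and 1 fell at 3 h, and 0 rose and 2 fell at 6 h, beside 31.6% and 43.3% of all genes called. At 12 h 3 rose and 0 fell, beside 35.8%, and at 24 h edgeR called 0, beside 40.8%. The medians of the markers at 3, 6, 12 and 24 h were -0.65, -0.23, 1.22 and -0.47. Without 12 h replicate 2 the median of the markers at 12 h was -0.25. Without 24 h replicate 1, 0 rose and 3 fell at 24 h, beside 38.4% of all genes called, with a median of -0.80. Their sums at 24 h were 188 to 293 CPM in the latrunculin B libraries and 215 to 247 CPM in the controls. The part of mesenchyme cells in the level of TUBB6 was not tested. Fitted on transcripts annotated as protein coding alone, TUBB6 changed by -0.70 at 6 h, -1.18 at 12 h and -1.08 at 24 h, all called.

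TUBA1B, the broadly expressed alpha tubulin of dividing cells, was called between the controls but in no contrast of the drug with its control. It stood at 581.1, 500.6 and 510.1 CPM at 0 h and at 328.9 and 376.0 in the 24 h control, a fall of 0.59 on the log2 scale (SE 0.11, edgeR adjusted p = 0.0469). That call was lost in 14 of 19 alternatives, without each of the 5 control libraries among them (-0.50 to -0.69, adjusted p = 0.0799 to 0.675). Under latrunculin B TUBA1B read 570.8, 589.4 and 672.1 CPM at 3 h, 516.5, 589.0 and 628.5 at 6 h, 443.3 and 431.1 at 12 h, and 379.3, 447.2 and 388.0 at 24 h, and no contrast with its control passed, though the 12 h value of -0.28 (adjusted p = 0.0527) was called in 4 alternatives, among them DESeq2 (adjusted p = 0.0360) and the fit without control 0 h replicate 2 (edgeR adjusted p = 0.0458). Without 12 h replicate 2 it was -0.26 (adjusted p = 0.170). Because the controls differed, the choice of control mattered: against the 24 h control TUBA1B was higher by 0.79 at 3 h (adjusted p = 0.000107) and by 0.71 at 6 h (adjusted p = 0.000158), and against the 0 h control it was lower at 24 h, by -0.39 (adjusted p = 0.00434). The sum over 10 markers of mitosis was 450 to 528 CPM at 0 h and 266 to 319 CPM in the 24 h control. Between these controls 1 marker, the mitotic kinase CDK1, fell (-0.86, adjusted p = 0.0469) and 9 did not pass, beside 0.251% of all genes called. Under latrunculin B the mitosis sum was 405 to 479 CPM at 3 h and 390 to 464 at 6 h. It was 489 and 665 at 12 h and 314 to 427 at 24 h. Against the 0 h control 1 marker rose and 3 fell at both 3 h and 6 h, beside 31.6% and 43.3% of all genes. At 12 h 2 rose and 0 fell, beside 35.8%. Against the 24 h control 3 rose and 0 fell at 24 h, beside 40.8%. There TUBA1B was at 0.20 (edgeR adjusted p = 0.146), with every drug library above the control libraries. The group mean of TUBA1B was highest at 3 h and 6 h. The part of the mitosis markers in the level of TUBA1B was not tested.

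TUBB4B, a broadly expressed beta tubulin that also builds cilia, read 258.5, 229.1 and 224.8 CPM at 0 h, 180.3 and 195.5 in the 24 h control, and 273.0, 304.1 and 318.7 at 3 h, above every control library. The 3 h rise was 0.33 ± 0.086 (edgeR adjusted p = 0.00952). It lost its call without control 0 h replicate 2 (0.29, adjusted p = 0.0512) or latrunculin B replicate 3 (0.26, adjusted p = 0.0598) and on the TPM scale (0.20, limma adjusted p = 0.0585). Later groups read 261.6 to 288.9 CPM at 6 h, 221.9 and 178.8 at 12 h and 178.6 to 199.8 at 24 h, with no call against the controls in this fit. The 6 h value of 0.21 (adjusted p = 0.0619) was called without control 0 h replicate 1 (adjusted p = 0.0304), with only the compared groups (adjusted p = 0.0188) and against the 24 h control (0.55, adjusted p = 0.000585). At 12 h the value of -0.25 (adjusted p = 0.0624) was -0.10 without replicate 2 (adjusted p = 0.506) and -0.41, with a call (adjusted p = 0.00722), on replicate 2 alone. It was also called with a mean of at least 50 counts, on both TPM scales and on protein-coding transcripts alone (-0.25 to -0.28, adjusted p = 0.0222 to 0.0470). At 24 h TUBB4B was lower than the 0 h control, by -0.32 (adjusted p = 0.00853). The 24 h control itself lay below the 0 h control, by -0.34 ± 0.097 (edgeR adjusted p = 0.203), with no overlap. Against the 24 h control the 24 h value was 0.02 ± 0.096 (adjusted p = 0.910).

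TUBB, the class I beta tubulin found in nearly all cells, had the most reads. It read 1048, 994 and 1026 CPM at 0 h, 829.2 and 855.9 in the 24 h control, 1042, 1050 and 1070 at 3 h, 1199, 1209 and 1322 at 6 h, 1050 and 832.1 at 12 h, and 802.9, 896.6 and 808.4 at 24 h. The 6 h libraries lay above all others, with a rise of 0.28 ± 0.074 (edgeR adjusted p = 0.00746) that was lost without latrunculin B replicate 3 (0.22, adjusted p = 0.0533). Against the 24 h control it was also higher at 3 h (0.32, adjusted p = 0.00973), where the 24 h control lay below the 0 h control by -0.28 (edgeR adjusted p = 0.240). At 12 h the 2 libraries lay apart, and the value of -0.12 became 0.04 without replicate 2 and -0.30, with a call (adjusted p = 0.00572), without replicate 1.

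TUBA1C, the third of the near-identical alpha genes, rose by 0.27 ± 0.079 (edgeR adjusted p = 0.0182) at 3 h, where it read 95.47, 110.4 and 100.4 CPM against 93.18, 84.41 and 76.14 at 0 h. These groups did not overlap, yet the call was lost without any 1 of 4 libraries (0.19 to 0.26, adjusted p = 0.0541 to 0.124), namely control 0 h replicates 2 and 3 and latrunculin B 3 h replicates 2 and 3. It was also lost without scaling factors (0.19, adjusted p = 0.1055) and on both TPM scales (0.24 and 0.25, limma adjusted p = 0.144 and 0.143). Later it read 86.8 to 93.7 CPM at 6 h, 81.5 and 97.9 at 12 h and 72.6 to 75.5 at 24 h, against 80.6 and 81.4 in the 24 h control. The 12 h value was 0.09 (adjusted p = 0.483), and -0.05 without replicate 2. TUBA4A, an alpha tubulin that is made without the usual terminal tyrosine, held 2.62 to 6.23 CPM and passed no contrast, its largest value being 0.40 ± 0.22 at 3 h (adjusted p = 0.202), and at 12 h its value was -0.32, or -0.51 without replicate 2 (adjusted p = 0.278). The TUBA1 trio summed to 1 feature rose by 0.16 at 3 h (adjusted p = 0.0187) and 0.37 at 6 h (adjusted p = 4.29e-05), with 0.08 at 12 h (0.11 without replicate 2) and 0.10 at 24 h not called.

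**Figure D2:**
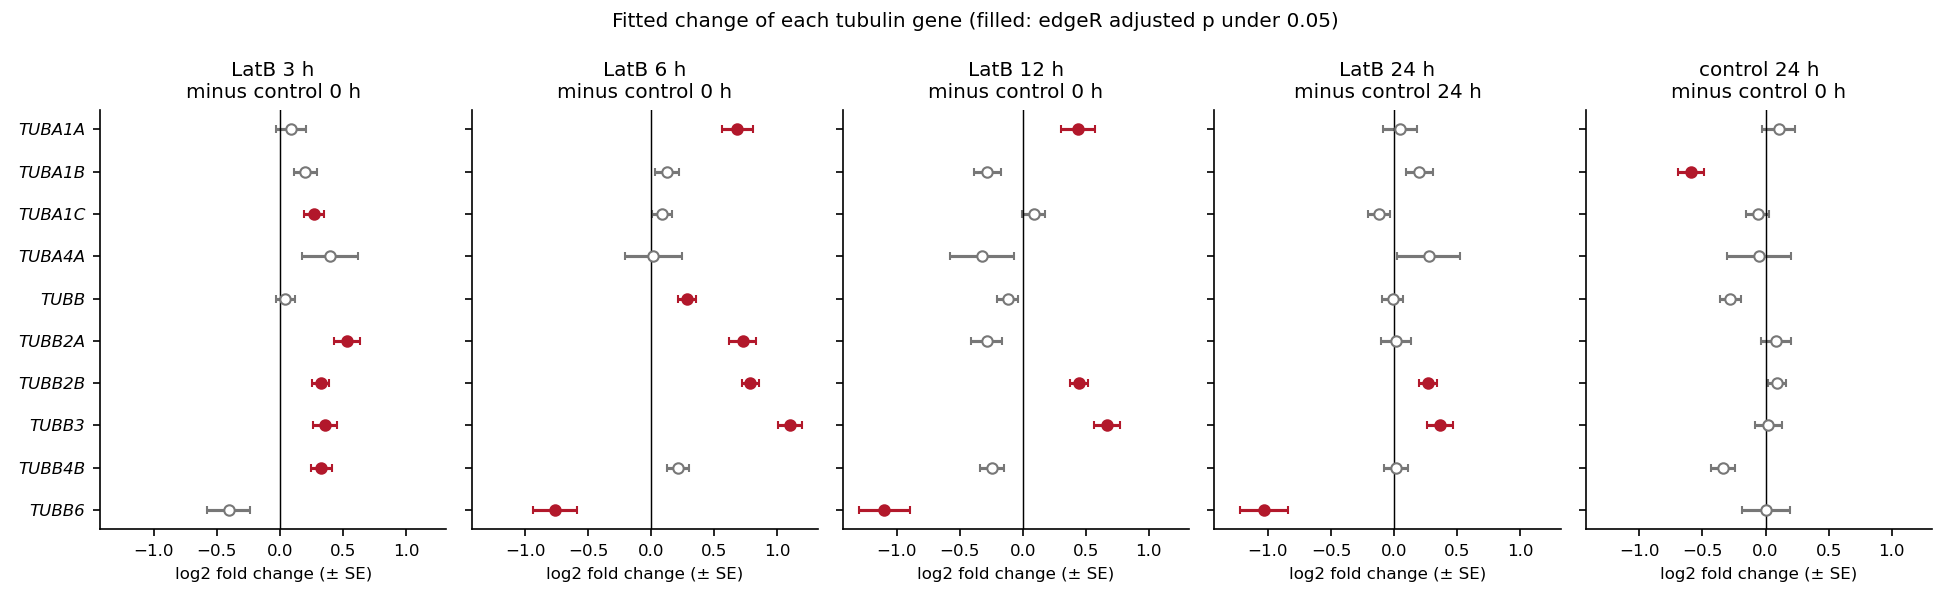
Fitted log2 fold change of each tubulin gene with its SE in the 4 comparisons of latrunculin B (LatB) with a control and in the comparison of the controls, 1 panel per comparison and 1 line per gene; filled points have an edgeR adjusted p under 0.05 and the vertical line marks no change. TUBB3 reaches 1.10 at 6 h, TUBB6 lies at -1.10 at 12 h and -1.03 at 24 h, and TUBA1B is the one filled point between the controls, at -0.59.

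Across the 10 genes, 5 rose and 0 fell at 3 h, beside 31.6% of all genes called (16.8% higher and 14.7% lower). At 6 h 5 rose and 1 fell, beside 43.3% called (22.9% higher, 20.4% lower), and at 12 h 3 rose and 1 fell, beside 35.8% (19.1% higher, 16.8% lower). Without 12 h replicate 2 the counts were again 3 and 1, beside 30.7% of all genes. At 24 h 2 rose and 1 fell against the 24 h control, beside 40.8% (21.9% higher, 18.8% lower). With 3 to 6 genes called of 10, the number called is not a result particular to the tubulin genes. The median change of the 10 was 0.30 at 3 h, 0.25 at 6 h, -0.18 at 12 h (-0.08 without replicate 2) and 0.03 at 24 h, where the median of all genes tested was 0.0021, -0.01, 0.01 and 0.0081. Without scaling factors the calls over all genes shifted from 2810 higher and 2461 lower to 1931 and 3411 at 3 h, and from 3819 and 3411 to 2708 and 4475 at 6 h.

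Between the controls 0 tubulin genes were higher and 1 was lower, TUBA1B, beside 0.251% of all genes called (0.0299% higher, 0.221% lower). From 3 h to 6 h of latrunculin B 4 rose and 0 fell, beside 22.2% (11.9% higher, 10.3% lower); they were TUBB3, TUBA1A (0.59), TUBB2B (0.46) and TUBB (0.24), the last of which lost its call without any 1 of the 6 libraries compared (0.19 to 0.27, edgeR adjusted p = 0.0503 to 0.133). From 6 h to 24 h 0 rose and 8 fell, beside 37.9% (19.0% higher, 18.9% lower), with a median of -0.52 against 0.0025 over all genes. The falls ran from -0.27 in TUBA1C to -0.71 in TUBB3, and TUBB (-0.57), TUBB4B (-0.53) and TUBA1B (-0.51) were among them. This contrast holds no control, so drug and time in culture cannot be told apart in it. From the 0 h to the 24 h control the values were -0.28 for TUBB, -0.34 for TUBB4B and -0.59 for TUBA1B, the last alone called. There TUBA1C was at -0.06, while TUBA1A (0.10), TUBB2A (0.09), TUBB2B (0.09) and TUBB3 (0.02) lay above 0. The fall of TUBA1C from 6 h to 24 h lost its call without latrunculin B 6 h replicate 1 (-0.24, adjusted p = 0.0641) or 24 h replicate 3 (-0.25, adjusted p = 0.0550). TUBA4A (0.21, adjusted p = 0.513) and TUBB6 (-0.27, adjusted p = 0.263) did not pass, though TUBB6 was called once latrunculin B 24 h replicate 1 was left out (-0.48, adjusted p = 0.0445) and on protein-coding transcripts alone (-0.44, adjusted p = 0.0469). Without scaling factors the median of all genes in this contrast moved from 0.0025 to 0.14, and the calls from 3169 higher and 3154 lower to 5224 and 1852, while the 8 tubulin genes had values between -0.14 and -0.58 and TUBA1C lost its call (adjusted p = 0.231).

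The effect at 24 h, against its own control, was set against the effect at 3 h, against the 0 h control. It was lower in 2 of the 10 genes and higher in 0, beside 27.9% of all genes (14.6% higher, 13.4% lower). TUBB2A differed by -0.52 ± 0.16 (edgeR adjusted p = 0.0260), from 0.53 at 3 h to 0.02 at 24 h, and TUBA1C by -0.39 ± 0.12 (adjusted p = 0.0249), from 0.27 to -0.12. In TUBB3 the difference was 0.00 ± 0.14, and in TUBB6 -0.63 ± 0.26 (adjusted p = 0.0872), which passed (adjusted p = 0.0180) once replicate 1 of the 24 h drug group was left out. Without scaling factors the calls over all genes moved from 2431 higher and 2234 lower to 3583 and 1608, and both tubulin calls were lost. They were also lost without any 1 of several libraries, 5 of 11 for TUBB2A (-0.39 to -0.48, adjusted p = 0.0575 to 0.133) and 6 of 11 for TUBA1C (-0.32 to -0.40, adjusted p = 0.0509 to 0.0727). For TUBB2A these were control 0 h replicates 1 and 2, control 24 h replicate 2, latrunculin B 3 h replicate 2 and 24 h replicate 2. For TUBA1C they were control 0 h replicates 2 and 3, both 24 h controls, latrunculin B 3 h replicate 2 and 24 h replicate 3.

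In TPM, the 10 genes together made up 2437 ± 120 at 0 h, 2536 ± 102 at 3 h, 3038 ± 76.7 at 6 h, 2523 ± 10.2 at 12 h and 2177 ± 44.9 at 24 h, with 2101 ± 115 in the 24 h control. The 6 h libraries, from 2949 to 3086 TPM, lay above every other library. The ratio of alpha to beta TPM had group means between 0.856 and 0.945, and stood at 0.903 ± 0.022 at 0 h, 0.856 ± 0.023 at 6 h and 0.891 ± 0.032 at 24 h of latrunculin B. The total, this ratio and the shares of beta TPM leave out the second TUBB identifier. TUBB3 supplied 17.2% of beta TPM at 0 h, 25.3% at 6 h and 22.8% at 24 h, against 18.9% in the 24 h control. TUBB6 supplied 3.38%, 1.09% and 1.88% at those times and 3.90% in the 24 h control. The TUBA1A share of alpha TPM was 39.2 ± 2.34% at 0 h and 48.5 ± 3.65% at 6 h, but also 48.8 ± 0.435% in the 24 h control and 47.6 ± 5.18% after 24 h of latrunculin B.

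**Figure D3:**
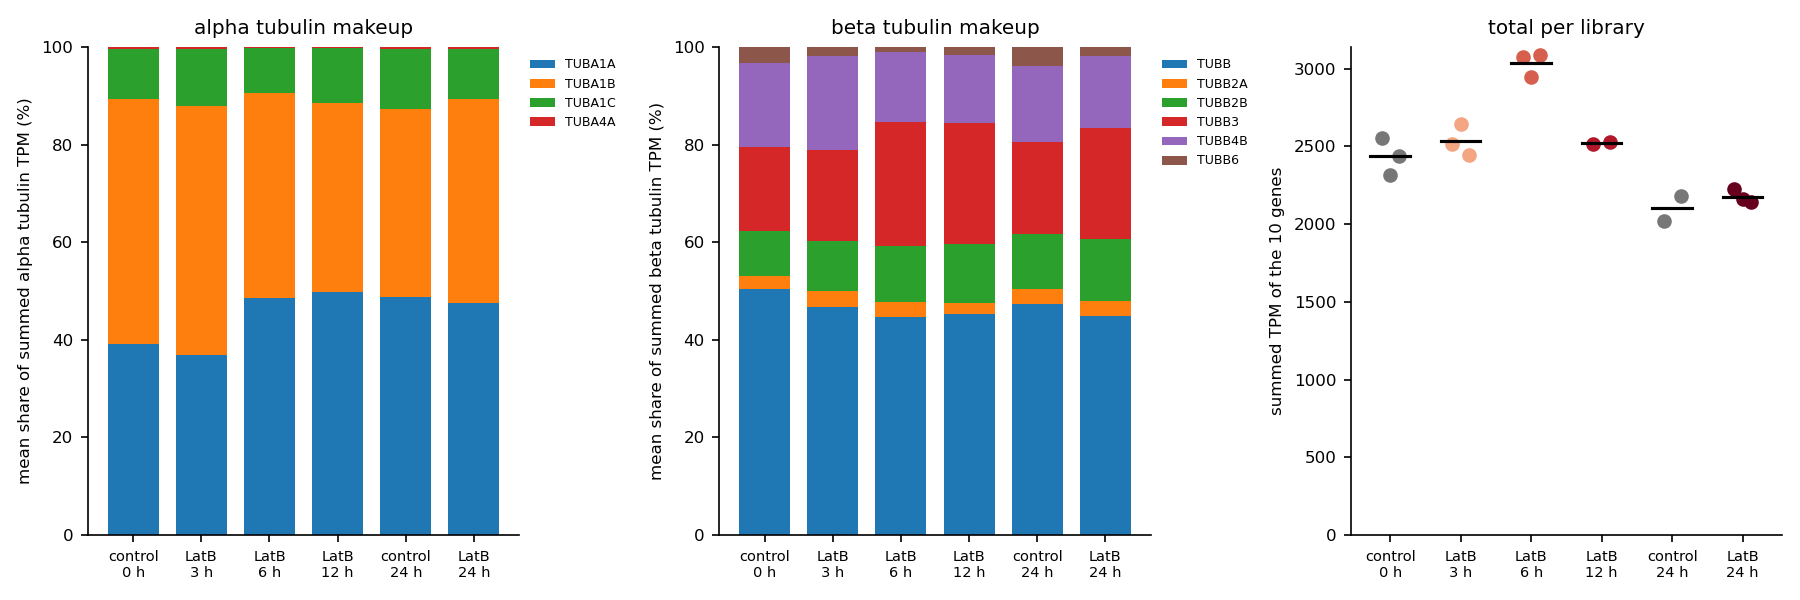
Mean share of each gene in the summed alpha tubulin TPM and in the summed beta tubulin TPM by group, as stacked bars in percent, and the summed TPM of the 10 genes in each library as points with group means. The TUBB3 share of beta rises from 17.2% at 0 h to 25.3% at 6 h, and the total is highest at 6 h, at 2949 to 3086 TPM. TUBB is counted without its second identifier.

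Transcript shares depended on the unit for TUBB6. The full-length coding transcript TUBB6-201 held 75.7% of the gene's estimated counts at 0 h but 37.5% of its TPM, because TUBB6-206, a short transcript with a retained intron, held 6.63% of the counts and 39.0% of the TPM. TUBB6-206 was at 0 in some of the 3 h and 6 h libraries, so the TPM of TUBB6 at those times rests in part on which transcript received the reads. TUBB3-201 carried 85.1 ± 3.29% of TUBB3 TPM at 0 h and 91.7 ± 0.850% after 24 h of latrunculin B, against 92.6 ± 0.905% in the 24 h control. TUBA1A-202 carried 98.1% or more of TUBA1A TPM on average in every group.

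TUBB has a second identifier, ENSG00000183311, on an alternate sequence of chromosome 6, which was followed in a deposited table of normalized gene counts. It held 22.4% to 34.7% of the TUBB signal of a library, on average 24.3% at 0 h, 27.9% in the 24 h control and 31.8% after 24 h of latrunculin B. Its level was 8392 to 11005 normalized counts at 0 h and 11731 to 13452 at 6 h, where the groups did not overlap, a change of 0.45 ± 0.11 (limma adjusted p = 0.00699). Summed over both identifiers TUBB rose by 0.31 ± 0.078 at 6 h (limma adjusted p = 0.00721). The CPM and TPM of TUBB given above are for the main identifier alone.

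Genes that serve tubulin were followed in lists chosen by function, and the share of each list that was called is set beside 31.6%, 43.3%, 35.8% and 40.8% of all genes called at 3, 6, 12 and 24 h (30.7% at 12 h without replicate 2). List counts without that library were taken after the data were seen. Among 12 tested genes of tubulin folding, the chaperones that assemble the dimer, 2, 4, 1 and 5 rose and 0, 0, 2 and 0 fell at 3, 6, 12 and 24 h, with medians of 0.06, 0.05, -0.03 and 0.16. That is 16.7%, 33.3%, 25.0% and 41.7% called, and at 12 h 1 rose and 1 fell without replicate 2. The cofactor TBCC rose by 0.38 at 6 h (edgeR adjusted p = 0.000543), 0.54 at 12 h and 0.54 at 24 h (adjusted p = 0.000122), and TBCD, which holds beta tubulin, fell by 0.40 on the log2 scale at 12 h (adjusted p = 0.00356). Leaving out 12 h replicate 2 gave 0.52 for TBCC and -0.31 for TBCD at 12 h, both called. Among 12 genes of tubulin mRNA autoregulation, 6, 4, 5 and 6 rose and 2, 4, 2 and 2 fell, or 66.7%, 66.7%, 58.3% and 66.7% called, while at 12 h without replicate 2 it was 2 and 2. The medians were 0.12, 0.06, 0.12 and 0.20. TTC5, which reads the nascent chain, was lower at 3 h (-0.27, adjusted p = 0.00693) and higher at 12 h (0.29) and 24 h (0.35, adjusted p = 0.00198). SCAPER, the adaptor to the deadenylase, was lower at 6 h (-0.26), 12 h (-0.42) and 24 h (-0.33, adjusted p = 0.000728), and the deadenylase subunit CNOT6L was lower at all 4 times, from -0.35 at 6 h to -0.56 at 12 h. Without 12 h replicate 2 the 12 h call of TTC5 was lost (0.24, adjusted p = 0.0583), and SCAPER (-0.49) and CNOT6L (-0.66) remained called.

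Of 12 other tubulins listed, 7 passed the filter, and 2, 2, 1 and 0 rose while 2, 1, 2 and 1 fell at 3, 6, 12 and 24 h, or 57.1%, 42.9%, 42.9% and 14.3% called, with 1 and 1 at 12 h without replicate 2. TUBB4A, a beta tubulin of neurons and oligodendrocytes, rose by 0.30, 0.48 and 0.40 at 3, 6 and 12 h (edgeR adjusted p = 0.0111, 0.000334 and 0.00352). TUBG2, a gamma tubulin of the nucleation complex, fell throughout, from -0.34 at 3 h to -0.74 at 24 h (adjusted p = 0.000432). With replicate 2 left out, the 12 h values were 0.47 for TUBB4A and -0.81 for TUBG2, both called. In the gamma-tubulin ring complex, which nucleates microtubules, 2, 0, 1 and 2 of 10 genes rose and 0, 2, 3 and 1 fell, or 20%, 20%, 40% and 30% called, with 0 and 2 at 12 h without replicate 2.

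Proteins that bind or change the microtubule made up 4 more lists. Of 14 lattice stabilisers 3, 6, 5 and 6 rose and 1, 2, 2 and 3 fell at 3, 6, 12 and 24 h, or 28.6%, 57.1%, 50% and 64.3% called, with 4 and 3 at 12 h without replicate 2. The neuronal stabiliser DCX, which is also on the neuron list, stood at 35.3 ± 3.40 CPM at 0 h and at 112 and 166 in the 12 h libraries, the higher value in replicate 2. The rise was 1.98 (edgeR adjusted p = 2.48e-06), and 1.67 without replicate 2 (adjusted p = 1.36e-05). MAP4, the general stabiliser of non-neuronal cells, fell by 0.65 on the log2 scale at 12 h (adjusted p = 2.60e-06), and its value was -0.61, also called, without replicate 2. Of 12 proteins of the plus end 5, 5, 2 and 2 rose and 0, 3, 2 and 2 fell, or 41.7%, 66.7%, 33.3% and 33.3% called, with 2 and 4 at 12 h without replicate 2. Among them was DST, a giant linker of actin and microtubules, which rose by 0.76 at 3 h and 0.95 at 6 h (adjusted p = 6.58e-09).

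Of 14 tested destabilising and severing proteins 0, 3, 2 and 2 rose and 3, 4, 1 and 1 fell, or 21.4%, 50%, 21.4% and 21.4% called, with 2 and 1 at 12 h without replicate 2. STMN1, which sequesters tubulin dimers, rose by 0.45 at 6 h, 0.65 at 12 h and 0.65 at 24 h (edgeR adjusted p = 4.50e-06), with 0.68 at 12 h without replicate 2. KIF19, a motor that shortens ciliary microtubules, went from 2.27 ± 0.334 CPM in the 24 h control to 26.5 ± 12.1 CPM, a rise of 3.54 (adjusted p = 1.98e-05). Of 19 enzymes that modify tubulin tails 2, 3, 2 and 5 rose and 4, 5, 6 and 6 fell, or 31.6%, 42.1%, 42.1% and 57.9% called, with 3 and 3 at 12 h without replicate 2. VASH2, which removes the terminal tyrosine, rose by 1.01 at 24 h (adjusted p = 9.40e-05), and TTLL3, a glycylase of ciliary tubulin, fell by 1.58 on the log2 scale at 24 h (adjusted p = 0.000275). Without latrunculin B 24 h replicate 1, 38.4% of all genes were called at 24 h. Tubulin folding then had 3 rises and 0 falls, autoregulation 6 and 2, other tubulins 1 and 1 and the ring complex 1 and 1. Lattice stabilisers had 4 and 3, plus end proteins 3 and 3, destabilising and severing proteins 2 and 1 and tail enzymes 6 and 6.

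The patterns of the 10 genes over the 16 libraries fell into recognisable pairs, given here as Pearson correlations of log2 CPM, a description in which libraries share groups. TUBB3 and TUBB2B correlated at 0.987 and TUBB3 and TUBA1A at 0.910, and TUBB4B and TUBA1B correlated at 0.939. TUBB6 ran against TUBB2B (-0.637) and TUBB3 (-0.616). Outside the family, the genes most like TUBB3 were IFT22 (0.976) and SGPP2 (0.966), and those most like TUBB2B were HNRNPK (0.972) and ABL1 (0.968). The genes most like TUBB6 were MYO9A (0.981) and MSRB3 (0.972). Those most like TUBA1B were CENPN (0.956), a centromere protein, and MYBL2 (0.946), a cell cycle transcription factor. The nearest genes to TUBA1A were RGS17 (0.938) and DPYSL3 (0.935).

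Promoters were searched on both strands for 5 motifs over 250 bases before the start of each gene, in RefSeq sequences on GRCh38, taking for each of the 10 genes the window whose start matched the GENCODE transcript shown. CCAAT was found in 7 of the 10 and in 32% of 35116 promoters, and GGGCGG, the core bound by SP1, in 8 of the 10 and in 42.6% of all. GGAATG, bound by TEAD factors, was found in TUBB4B alone (11.9% of all), and TATAAA in TUBB2A alone (10.7%). The CArG box, bound by SRF, was in 0 of the 10 and in 1.16% of all. A match says only that the letters are present in that window.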

How the data were processed

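Polyadenylated RNA of 16 libraries was read. The authors deposited, per library, Salmon estimated counts and TPM for 177456 transcripts (Salmon 1.3.0 in the submitters' processing notes, while STAR is named as aligner in the paper). The transcript set and strand use are not given in the sources used here. The authors also deposited a gene table with the signal of each library as normalized counts, used for the second TUBB identifier and as an alternative chosen after seeing the data. Its columns of fold changes and adjusted p-values hold the authors' own comparisons and were not used.

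Estimated counts were summed per gene by GENCODE v44 on GRCh38 for 165533 matched transcripts (2.92% to 3.17% of reads were unmatched) and rounded. Genes were filtered with filterByExpr, scaled by TMM (factors 0.947 to 1.05) and fitted with the edgeR 4.0.16 quasi-likelihood test in R 4.3.3, all 6 groups in 1 fit. P-values were adjusted by Benjamini-Hochberg over 16705 genes, with 0.05 as the limit for a call. TPM was compared as deposited and, with limma 3.58.1 on log2(TPM + 1) and log2(TPM + 0.1), as an alternative. The fits were also run on simulated data, and the outcome is not reported here.

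Other alternatives were DESeq2 1.42.0, RLE or no scaling, other filters and thresholds, protein-coding transcripts only, an offset for transcript length, copies summed, the other control, only the compared groups, a replicate block and leaving out each library. TPM and CPM per kilobase of effective length give the same shares by construction. Where a library of a group of 2 was left out, the single library remaining was assumed to vary like the other groups.

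The members, gene lists and tests were chosen with earlier results of these data known. All 10 tubulin genes are named, and from each list at most the 2 largest called rises and falls per comparison with a control. PDX1, SOX1 and ELAVL3 were named as checks of cell type after their values were seen. For likeness the 2 genes outside the family with the highest Pearson correlation are named, among genes with a symbol and a mean log2 CPM of at least 3.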

Additional observations from a re-analysis of the deposited data

Results flagged for a closer look

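For 2 tubulin genes the 24 h change under the drug (24 h control as reference) differed from the 3 h change (0 h control as reference) by the test of that difference. The value was -0.515934 for TUBB2A and -0.391735 for TUBA1C on the log2 scale, and both calls were lost in 11 of 25 alternatives. The level of TUBB counted under a second identifier, outside the main measurement, was higher at 6 h than in the 0 h control by 0.446125 on the log2 scale (limma adjusted p = 0.00699).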

How the results depend on the processing

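Of 1700 values of single tubulin genes under the alternatives, 1448 kept both their direction and their side of the threshold, 107 lost a call, 26 gained one and 119 changed sign. Every sign change was of a value that was not called in the reported fit, and the cause was not tested. At 6 h the call of TUBB3 was kept under every alternative run, and those of TUBB2B and TUBA1A were lost only where a log2 change of at least 1 was also required. The 12 h and 24 h control groups held 2 libraries each, and TUBA4A had the fewest reads of the 10 genes, 60 to 203 a library. Libraries with the same replicate number showed no strong shared deviation, and 2 of 36 same-numbered pairs of groups had deviations correlated above 0.1 (r from -0.241 to 0.116). Because the deviations were taken from means of 2 or 3 libraries, this cannot settle whether the numbers pair the samples. With the replicate number as a replicate block, 6 genes and 0 tubulin genes were called between the controls (TUBA1B -0.58, edgeR adjusted p = 0.0898), and TUBB lost its call from 3 h to 6 h (0.24, adjusted p = 0.0582), the paired fit giving opposite signs to TUBA1A in the difference of effects (0.00013), TUBB2A at 24 h (-0.0037) and TUBB6 between the controls (-0.0404). 

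Counts of called genes moved by more than 1.5 times as follows. Between the controls, against 42 called genes, there were 248 with DESeq2, 8 with RLE size factors, 2 at an adjusted p under 0.01, 8 in the deposited normalized counts, 7 at a log2 change of at least 1, 7 and 2 on log2(TPM + 0.1) and log2(TPM + 1), 87 with a mean of at least 50 counts, 91 with no filter, 7 with no scaling, 218 with only the compared groups, 66 with protein-coding transcripts only and 8 with a length offset. The tubulin call there, 1 gene, became 0 with RLE size factors, at 0.01, in the deposited normalized counts, at a log2 change of 1, on both TPM scales, with no scaling and with the length offset. At an adjusted p under 0.01, 3400 genes were called at 3 h, 3738 at 12 h, 4484 at 24 h, 1888 from 3 h to 6 h, 4116 from 6 h to 24 h and 2609 in the difference of effects, with 3 tubulin genes at 3 h, 1 at 24 h and 0 in the difference. At a log2 change of at least 1, 614, 1033, 1266 and 1213 genes were called at 3, 6, 12 and 24 h, 298 from 3 h to 6 h, 865 from 6 h to 24 h and 960 in the difference, with 0, 1, 1 and 1 tubulin genes at 3, 6, 12 and 24 h and 0 in the other contrasts. On log2(TPM + 0.1) there were 3981 at 12 h, 1788 from 3 h to 6 h and 2940 in the difference, on log2(TPM + 1) 1751 and 2941 in the last 2, and on both scales 2 tubulin genes at 3 h and 0 in the difference. In the deposited normalized counts 2186 genes were called from 3 h to 6 h and 1 tubulin gene in the difference. With only the compared groups 2828 genes were called at 12 h, with the other control 6 tubulin genes at 24 h, with protein-coding transcripts only 7 at 12 h, with no scaling 0 in the difference, and with the length offset 2029 genes from 3 h to 6 h and 2978 in the difference. Leaving out 1 library gave 3 to 5 tubulin genes at 3 h, 1 to 3 at 24 h, 0 to 3 in the difference and 0 between the controls, and 4034 to 6424, 3012 to 4535 and 2 to 9 genes in all at 24 h, in the difference and between the controls. The lowest counts at 24 h, 1 tubulin gene and 4034 genes in all, came without control 24 h replicate 1.

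Signs changed as follows. With the other control, TUBA1B was at -0.39 and TUBB4B at -0.32 at 24 h, both called, and TUBA1A at -0.012 at 3 h, TUBA1B at 0.31, TUBB at 0.16 and TUBB4B at 0.092 at 12 h, none called. The changes below were of values not called before or after. In the difference of effects, TUBA1B was at 0.0013 with DESeq2, 0.00017 with RLE size factors, 0.0077 with only the compared groups, 0.024 in the deposited normalized counts and 0.0201 with the length offset, and TUBA4A was at 0.44 and 0.52 in the last 2. The deposited normalized counts gave TUBA4A -0.033 at 6 h, TUBB2A -0.0077 and TUBB4B -0.023 at 24 h, TUBB3 -0.071 between the controls and TUBB6 0.21 from 6 h to 24 h. The length offset gave TUBA4A -0.027 at 6 h, TUBB2A -0.0022 and TUBB4B -0.017 at 24 h, TUBA1C 0.0083, TUBB3 -0.064 and TUBB6 -0.0019 between the controls and TUBB6 0.21 from 6 h to 24 h. On log2(TPM + 0.1) and log2(TPM + 1) the difference of effects was 0.055 on both for TUBA1A, 0.0800 and 0.0798 for TUBA1B, 0.0302 on both for TUBB and 0.015 on both for TUBB2B, and 0.49 and 0.41 for TUBA4A. The same scales gave TUBA1A -0.037 and -0.036, TUBA4A -0.0086 and -0.0096 and TUBB -0.059 on both at 3 h, TUBA4A -0.12 and -0.099 at 6 h, TUBB2A -0.018 and TUBB4B -0.034 on both at 24 h, TUBA1C 0.022 and 0.021 and TUBB3 -0.055 on both between the controls, and TUBB6 0.30 and 0.28 from 6 h to 24 h. A mean of at least 50 counts gave TUBA4A -0.0083 at 6 h and TUBB2A -0.0022 and TUBB4B -0.0023 at 24 h, and no filter gave TUBB2A -0.0045 and TUBB4B -0.0041 at 24 h and TUBB3 -0.0056 in the difference. No scaling gave TUBB -0.035 at 3 h and 0.014 at 24 h, TUBA1C -0.0036 and TUBA4A -0.077 at 6 h, and TUBA1A 0.059, TUBA1B 0.10, TUBB 0.048 and TUBB2B 0.047 in the difference. Protein-coding transcripts only gave TUBA1A -0.0100, TUBB2A -0.0504 and TUBB4B -0.035 at 24 h, TUBA1C -0.011 at 6 h and -0.018 at 12 h, TUBA4A 0.14 and TUBB6 -0.063 between the controls and TUBB3 -0.022 in the difference. Leaving out 1 library at a time gave ranges across 0 for TUBA1A at 3 h (-0.021 to 0.22), TUBA4A at 6 h (-0.085 to 0.078), TUBA1C (-0.054 to 0.21) and TUBB (-0.30 to 0.039) at 12 h, and TUBA1A (-0.0197 to 0.14), TUBA4A (-0.075 to 0.50), TUBB (-0.064 to 0.017), TUBB2A (-0.095 to 0.14) and TUBB4B (-0.041 to 0.076) at 24 h. It did so between the controls for TUBA1C (-0.13 to 0.012), TUBB2A (-0.037 to 0.20), TUBB3 (-0.028 to 0.071) and TUBB6 (-0.068 to 0.065), from 6 h to 24 h for TUBA4A (-0.14 to 0.43), and in the difference for TUBA1A (-0.18 to 0.059), TUBA1B (-0.097 to 0.097), TUBA4A (-0.47 to 0.10) and TUBB3 (-0.076 to 0.073). With near-identical copies summed there were 7 features in place of 10 genes, so no count of tubulin genes was made.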
